A study of Arabidopsis thaliana with 24 samples.

Results

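ARP9 (AT5G43500), which encodes actin-related protein 9, was examined together with its neighbours on the long arm of Arabidopsis thaliana chromosome 5. The set holds every gene of the deposited tables that starts between positions 17370000 and 17570000 of chromosome 5 in the TAIR10 genome, which is 62 of 33243 genes. ARP9 was chosen because its RNA was higher in every group labelled heso1-4, and AT5G43460 was singled out beside it, so the values of both in those comparisons are given as a description, without a test. Of the 62 genes, 53 are protein-coding, 4 are long non-coding RNAs, 2 are other non-coding RNAs, 2 are tRNA genes and 1 is the microRNA precursor MIR166f, and 32 lie on the plus strand. At the edges of the window, LURE1.1 (AT5G43285) lay just inside and DCI1 (AT5G43280), an enoyl-CoA isomerase gene, just outside, and AT5G43745, annotated as a POLLUX-like ion channel, lay just inside and PnsB5 (AT5G43750), a subunit of the chloroplast NAD(P)H dehydrogenase complex, just outside. In flower buds of WT these stood at 0.067 CPM (the count of a gene relative to the TMM-scaled library total, in the usual unit) for LURE1.1, 17.1 for DCI1, 40.2 for AT5G43745 and 24.9 for PnsB5.

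Actin-related proteins share the fold of actin. ARP2 and ARP3 start new actin filaments in the cytoplasm, whereas ARP4, ARP5 and ARP6 are subunits of nuclear complexes that remodel chromatin, and ARP9 is a plant member of the family that is less well characterised. Arabidopsis genes lie close together, so the window also holds unrelated genes, among them phosphate transporters, disease resistance genes and the LURE1 peptides that guide pollen tubes to the ovule.

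Total RNA was sequenced from dry mature seeds, taken 8 weeks after flowering began, and from unopened flower buds, taken 2 weeks after it. All plants were of the Columbia accession (Col-0), grown in a greenhouse under long days, and each tissue had 4 genotypes with 3 libraries each: WT, the T-DNA insertion line urt1-1 (SALK_087647C), the T-DNA insertion line heso1-4 (GK-369H06-017072), and heso1-4 urt1-1, which carries both insertions. URT1 and HESO1 are terminal uridylyltransferases, enzymes that add uridines to the 3′ ends of RNAs. The labels call the replicates biological, and each library came from at least 5 pooled plants of 1 insertion line per gene, so line and insertion cannot be told apart. A different protocol served each tissue for RNA extraction, and the effects of protocol and tissue cannot be told apart either. In such bulk samples, fewer cells of a type and less RNA per cell cannot be told apart.

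Total counts per seed library ran from 19304121 to 38853305, and per flower bud library from 23787015 to 39797391. URT1 fell from 108 to 2.63 CPM between WT and urt1-1 seeds and from 47.2 to 2.41 CPM in flower buds. HESO1 went against its label, at 0.452 CPM in WT seeds and 182 in those labelled heso1-4, and at 13.9 and 805 CPM in flower buds, so those groups are called the libraries labelled heso1-4. In the libraries labelled heso1-4 urt1-1 HESO1 stood at 49.1 CPM in seeds and 65.1 in flower buds. The 5 seed storage and late embryogenesis markers summed to between 44317 and 89390 CPM in seed libraries and to between 4.49 and 10.2 in flower bud libraries, and the 5 floral organ identity markers to between 0.53 and 3.13 CPM in seeds and between 411 and 722 in flower buds. In 1 seed library, replicate 3 labelled heso1-4, the transcripts AT2G41310 and AT1G15405 took 9.53% and 9.05% of all counts, against at most 5.29% and 3.71% in the other seed libraries.

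ARP9 lies on the plus strand at chr5:17469490-17473619, spans 4130 bases with up to 18 exons, and overlaps no other annotated gene. Exons cover 63.8% of the span, and 6.51% of it, at the 3′ end, is at least 95% identical to sequence elsewhere. The nearest gene upstream is AT5G43490, annotated as myb-like protein X on the minus strand, whose start faces that of ARP9 across 177 bases. That stretch is shown because it holds the shared upstream region of both genes. It is given here from the plus strand of the RefSeq assembly TAIR10.1, chr5:17469313-17469489, with capitals marking the matches to the TATA box letters TATAAA on either strand.

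between AT5G43490 and ARP9: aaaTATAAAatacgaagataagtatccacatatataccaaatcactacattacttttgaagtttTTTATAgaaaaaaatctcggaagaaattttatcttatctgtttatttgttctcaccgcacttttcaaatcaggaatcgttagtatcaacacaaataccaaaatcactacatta

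The plus-strand match begins 174 bases and the minus-strand match 108 bases before the annotated start of ARP9. Of 33054 upstream windows of the same length, 36.6% hold TATAAA on at least 1 strand. The telo box AAACCCTA, the site II element TGGGCC and the G-box CACGTG had no match on either strand, and 3.46%, 10.8% and 4.73% of the windows hold them. G and C made up 26.6% of the stretch, against 32.1% over all windows. A letter match is a description of these windows and was not tested as a site.

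In seeds, ARP9 stood at 6.79, 8.34 and 9.44 CPM in the 3 WT libraries and at 7.98, 9.59 and 10.7 in urt1-1. It stood at 28.0, 26.5 and 24.8 CPM in the libraries labelled heso1-4 and at 23.4, 26.1 and 26.4 in those labelled heso1-4 urt1-1. The 6 libraries carrying the heso1-4 label all lay above the 6 without it, and the 2 sets did not overlap. ARP9 was chosen for its higher level here, and how many of all genes separate in this way was not counted. As a fitted log2 fold change, ARP9 was higher by 1.69 ± 0.14 (SE) against WT and by 1.42 ± 0.14 against urt1-1.

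In flower buds, ARP9 stood at 16.7, 13.9 and 14.0 CPM in WT and at 13.4, 15.8 and 16.3 in urt1-1. The libraries labelled heso1-4 held 41.1, 35.9 and 38.9 CPM and those labelled heso1-4 urt1-1 held 37.1, 32.7 and 35.7. Again no library with the label overlapped one without it, and again how many of all genes separate in this way was not counted. The log2 fold changes were 1.37 ± 0.12 against WT and 1.21 ± 0.12 against urt1-1. Averaged over both backgrounds, ARP9 was 2.94-fold higher in seeds and 2.45-fold higher in flower buds, a difference between the tissues of 0.27 ± 0.13 on the log2 scale. In the edgeR test of that difference, 0 of the 36 window genes tested were called, beside 0.00425% of all genes. That count includes ARP9 and AT5G43460. Both were picked out on the heso1-4 comparisons, so it is no test of either gene.

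ARP9 was not chosen for a difference with urt1-1, so that difference was tested. The choice used the same libraries, however, and put WT and urt1-1 on the same side, and likewise the groups with the heso1-4 label. The tests are therefore not independent of it. Against WT, the log2 fold change of ARP9 in urt1-1 was 0.20 ± 0.14 in seeds (edgeR adjusted p = 0.80, 95% interval -0.10 to 0.50) and 0.03 ± 0.11 in flower buds (adjusted p = 1, interval -0.23 to 0.28). Between the libraries labelled heso1-4 urt1-1 and heso1-4 it was -0.06 ± 0.13 in seeds (adjusted p = 0.89) and -0.14 ± 0.11 in flower buds (adjusted p = 1). HESO1 differed between those same groups, at 182 against 49.1 CPM in seeds and 805 against 65.1 in flower buds; the part of this in the ARP9 values was not tested. Per kb of gene span, ARP9 ranked number 14 of the 62 genes in WT seeds, at 1.98 CPM per kb, and number 8 in seeds labelled heso1-4, at 6.40. In flower buds it moved from number 21, at 3.60 CPM per kb, to number 10, at 9.35.

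**Figure D1:**
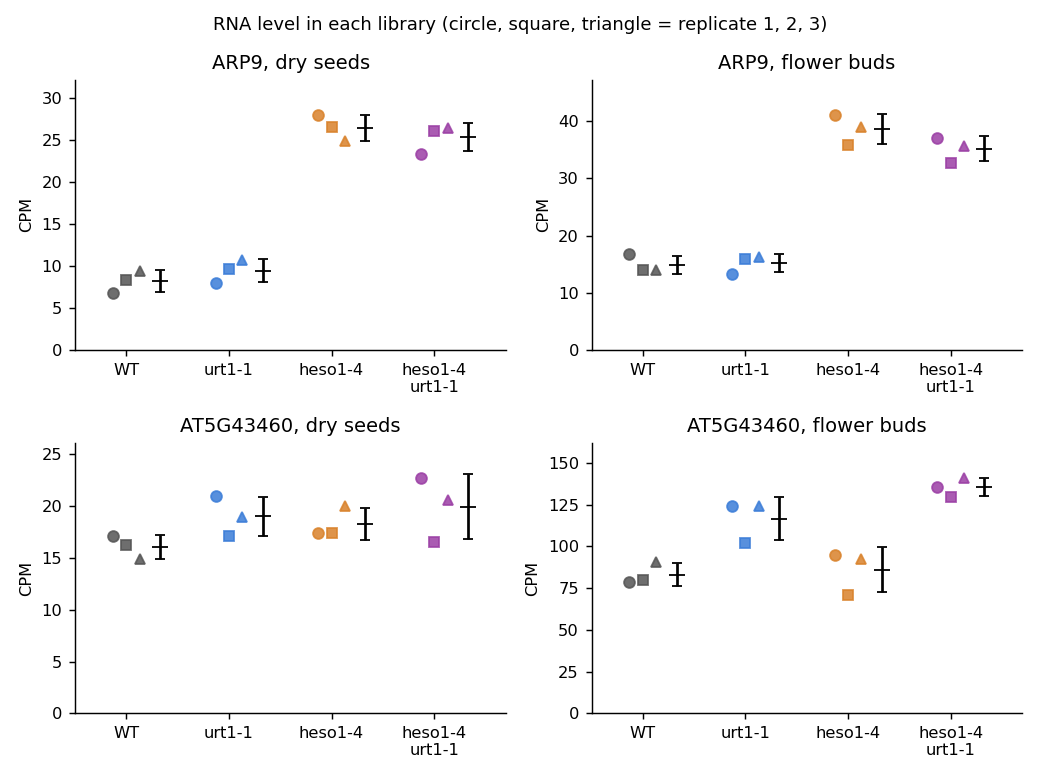
CPM of ARP9 (top) and AT5G43460 (bottom) in each library of dry seeds (left) and flower buds (right) by labelled genotype; symbols are replicates and the black bar is the mean ± SD of 3 libraries. ARP9 lies at 23.4 CPM or more in every seed library carrying the heso1-4 label and at 10.7 or less in the others, while AT5G43460 in flower buds is higher in the urt1-1 groups.

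The count test needs a minimum of reads, and 31 of the 62 genes passed that filter in seeds and 34 in flower buds, against 54.0% and 68.7% of all genes. In both tissues 29 passed, 2 passed in seeds only, 5 in flower buds only and 26 in neither. Of the genes that failed, 16 in seeds and 8 in flower buds had no read in any of the 12 libraries. The failing genes include the tRNA genes, MIR166f, the long non-coding RNAs and the phosphate transporters PHT1;1, PHT1;2 and PHT1;3. For 10 genes at least 50% of the span is copied elsewhere at 95% identity or more, so their reads could not be placed with certainty; they are PHT1;1, PHT1;2, AT5G43480, AT5G43490, both tRNA genes and LURE1.2 to LURE1.5.

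None of the neighbours of ARP9 passed the threshold in any comparison of the heso1-4 label. In seeds, 0 of 29 tested neighbours other than AT5G43460 were called by edgeR in the libraries labelled heso1-4 against WT, where 0.0111% of all genes tested were called by edgeR, in heso1-4 urt1-1 against urt1-1 (0.039%) and in the average over both (0.0167%). In flower buds, 0 of 32 were called by edgeR, beside 0.00876%, 0.0131% and 0.0131% of all genes. DESeq2 also called none of the neighbours it tested in these comparisons, beside 0.0116%, 0.0525% and 0.0193% of all genes in seeds and 0.0272%, 0.0136% and 0.017% in flower buds. With the replicate number as a block, edgeR called 0 of 29 in seeds and 0 of 32 in flower buds in each of these comparisons. The share of all genes called with that block is not reported here. At an unadjusted p under 0.05, 2 of the 29 seed neighbours passed against WT, 0 against urt1-1 and 1 on average (3.76%, 1.27% and 2.11% of all genes), and 1, 0 and 0 of the 32 in flower buds (2.73%, 1.39% and 2.2%). With so few genes called anywhere, a count of 0 was the usual outcome for a set of this size.

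The intervals say how large a difference could have gone unseen. For the average effect of the heso1-4 label, the 95% interval lay within 1 on the log2 scale, a doubling or halving, for 21 of 29 neighbours in seeds and 26 of 32 in flower buds, and within 0.5 for 12 and 20. The genes outside 1 in seeds were GDPD3, TOPP6, AT5G43403, AT5G43420, AT5G43440, RPP8, BHLH92 and AT5G43740. The median log2 fold change of the neighbours was -0.07 in seeds and -0.03 in flower buds, against -0.002 and -0.0002 for all genes tested.

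The genes nearest to ARP9 were at or near 0. AT5G43490, 177 bases upstream, had no read in any seed library and at most 4 in a flower bud library. AT5G43480, 1846 bases upstream, had none in seeds and 0 to 6 in flower buds. Both are near-copies of genes elsewhere on chromosome 5, AT5G43490 at 97.4% identity over 1186 bases. Neither gave a level to compare across genotypes.

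The next gene upstream is RPP8 (AT5G43470), annotated as a disease resistance protein, 2041 bases away on the opposite strand. In flower buds it held 61.3, 69.3 and 76.0 CPM in WT, 61.2, 64.3 and 89.0 in urt1-1, 80.6, 75.1 and 79.8 in the libraries labelled heso1-4 and 71.6, 73.0 and 83.3 in those labelled heso1-4 urt1-1. The libraries labelled heso1-4 overlap those of WT and lie within the range of urt1-1. In seeds RPP8 stood at 0.381 to 3.03 CPM, with its WT libraries spread widely. The start of RPP8 overlaps AT5G43480 by 51 bases, where a read counts for both genes.

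LURE1.2 (AT5G43510) starts 429 bases after ARP9 on the same strand, and all of its span occurs in near-identical copies. In seeds no read fell on it in the 6 libraries without the heso1-4 label, against 0, 1 and 0 reads in the libraries labelled heso1-4 and 1, 4 and 1 in those labelled heso1-4 urt1-1. These are too few reads to test. In flower buds it held 12, 0 and 0 reads in WT, 6, 2 and 1 in urt1-1, 11, 5 and 6 in the heso1-4 libraries and 2, 7 and 3 in heso1-4 urt1-1.

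AT5G43460, annotated as an HR-like lesion-inducing protein, lies upstream of ARP9 on the same strand with a gap of 6973 bases, at chr5:17459873-17462516. In seeds the heso1-4 label moved it by 0.18 ± 0.13 on the log2 scale against WT and by 0.07 ± 0.13 against urt1-1. In flower buds the figures were 0.05 ± 0.13 and 0.21 ± 0.13. In flower buds it was the gene with the most reads per kb in the window in each of the 4 genotypes, at 31.4 CPM per kb in WT.

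**Figure D2:**
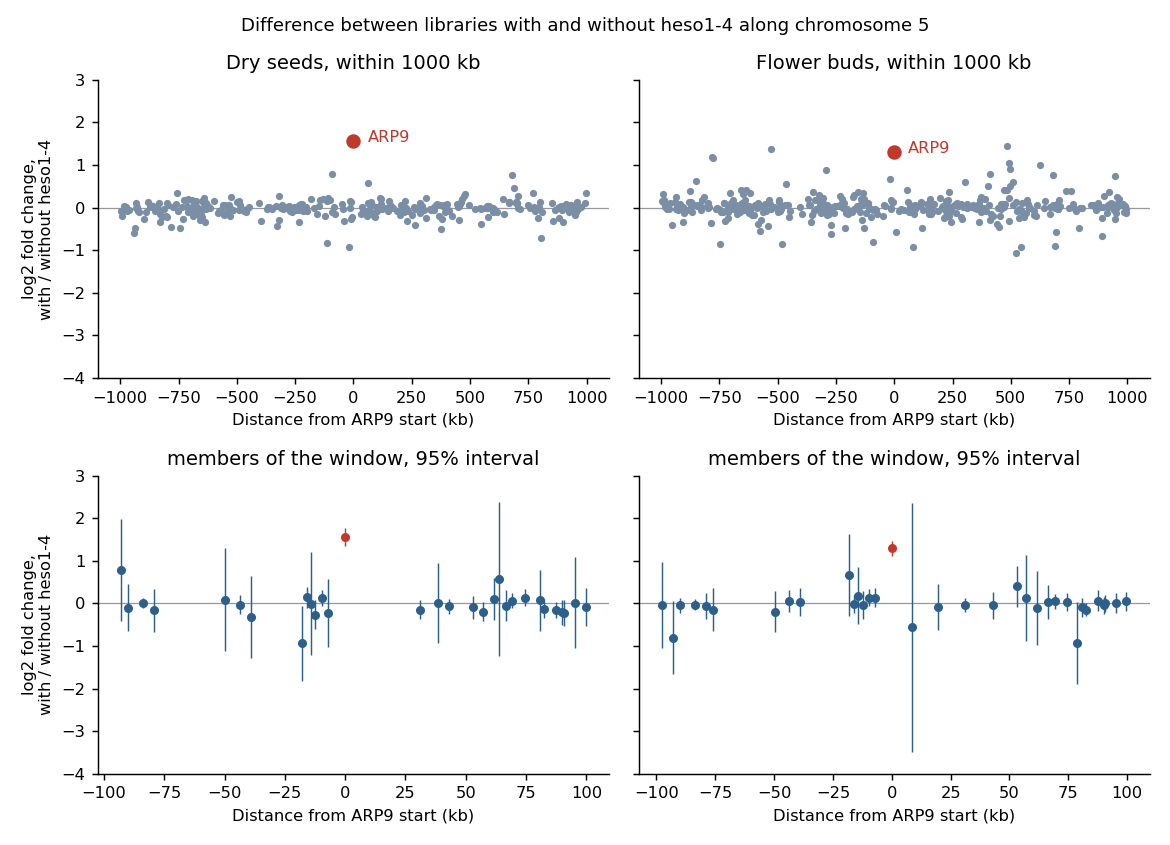
Log2 fold change of libraries with the heso1-4 label against those without it, averaged over both backgrounds, by distance from the start of ARP9 in kb. The upper panels show all tested genes within 1000 kb on chromosome 5 and the lower panels the tested genes of the window with 95% intervals; ARP9 is red, at 1.55 in seeds and 1.29 in flower buds.

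Along chromosome 5, edgeR called none of the genes within 1000 kb of ARP9, which is itself left out here because it was chosen on this comparison. Within 25 kb, 5 genes were tested in seeds and 7 in flower buds besides AT5G43460, and their log2 fold changes ran from -0.93 to 0.15 and from -0.56 to 0.66. At an unadjusted p under 0.05, 1 of the 5 passed in seeds and 0 of the 7 in flower buds. From 25 to 50 kb, 0 of 6 and 0 of 5 passed, and from 50 to 100 kb 0 of 18 and 0 of 20. From 100 to 250 kb, 0 of 43 and 2 of 61 passed, and from 250 to 500 kb 1 of 72 and 0 of 102. From 500 to 1000 kb, 4 of 154 and 6 of 196 passed, 2.6% and 3.06%. Over all genes 2.11% passed in seeds and 2.2% in flower buds. The nearest neighbour with an unadjusted p under 0.05 in seeds was AT5G43420, a RING/U-box gene 18.0 kb upstream, at -0.93. Its counts were 4 to 18 per library, so that value rests on few reads. On the other side the nearest such gene was AT5G44180, 313 kb away. In flower buds the nearest were DCI1, 102 kb upstream and outside the window, at -0.21, and AT5G44680, 554 kb downstream.

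The effect of urt1-1 on the neighbours shared WT and urt1-1 libraries with the comparisons above. Of the genes other than ARP9 and AT5G43460, 0 of 29 were called in seeds and 0 of 32 in flower buds by edgeR, both for urt1-1 against WT (0.0279% and 0.00876% of all genes) and for the libraries labelled heso1-4 urt1-1 against heso1-4 (0.0725% and 0.0131%). DESeq2 gave an adjusted p to other numbers of these neighbours. In seeds it called 0 of 10 and 0 of 30, beside 0.198% and 0.489% of all genes. In flower buds it called 0 of 52 in both comparisons, beside 0.0204% and 0.0782%. At an unadjusted p under 0.05, 0 and 4 seed neighbours passed (6.9% and 10.6% of all genes), and 1 and 1 in flower buds (2.6% and 2.82%). The 4 in seeds were ckl8, TOPP6, a protein phosphatase gene, AT5G43620 and AT5G43640.

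AT5G43460 was the neighbour with the clearest difference between libraries with and without urt1-1. In flower buds it stood at 78.7, 79.8 and 90.9 CPM in WT, 124, 102 and 124 in urt1-1, 95.2, 70.9 and 92.3 in the heso1-4 libraries, and 136, 130 and 141 in heso1-4 urt1-1. Every flower bud library with urt1-1 lay above every one without it, but how many of all genes separate in this way was not counted. The log2 fold change was 0.49 ± 0.13 for urt1-1 against WT (edgeR adjusted p = 1) and 0.65 ± 0.13 between the libraries labelled heso1-4 urt1-1 and heso1-4 (adjusted p = 0.81; 0.071 with the replicate block; 0.012 with DESeq2, which passes the threshold). Over both backgrounds it was 0.57 ± 0.09, a 1.49-fold rise, with edgeR adjusted p = 0.17. This average was added after these values were seen. With the replicate number as a block, which the correlated deviations of same-numbered flower libraries allow, its adjusted p was 0.012, and with DESeq2 4.9e-05, so the call depends on the method. Of the 32 other neighbours, edgeR called 0 in this average and the block 0 (0.0175% and 0.0263% of all genes). At an unadjusted p under 0.05, 1 passed with edgeR (3.5%). DESeq2 called 0 of the 48 it tested (0.126%). In seeds the same average was 0.18 ± 0.09 (adjusted p = 0.36), at 16.1 CPM in WT and 19.0 in urt1-1. Whether the 2 tissues differ in this was not tested.

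**Figure D3:**
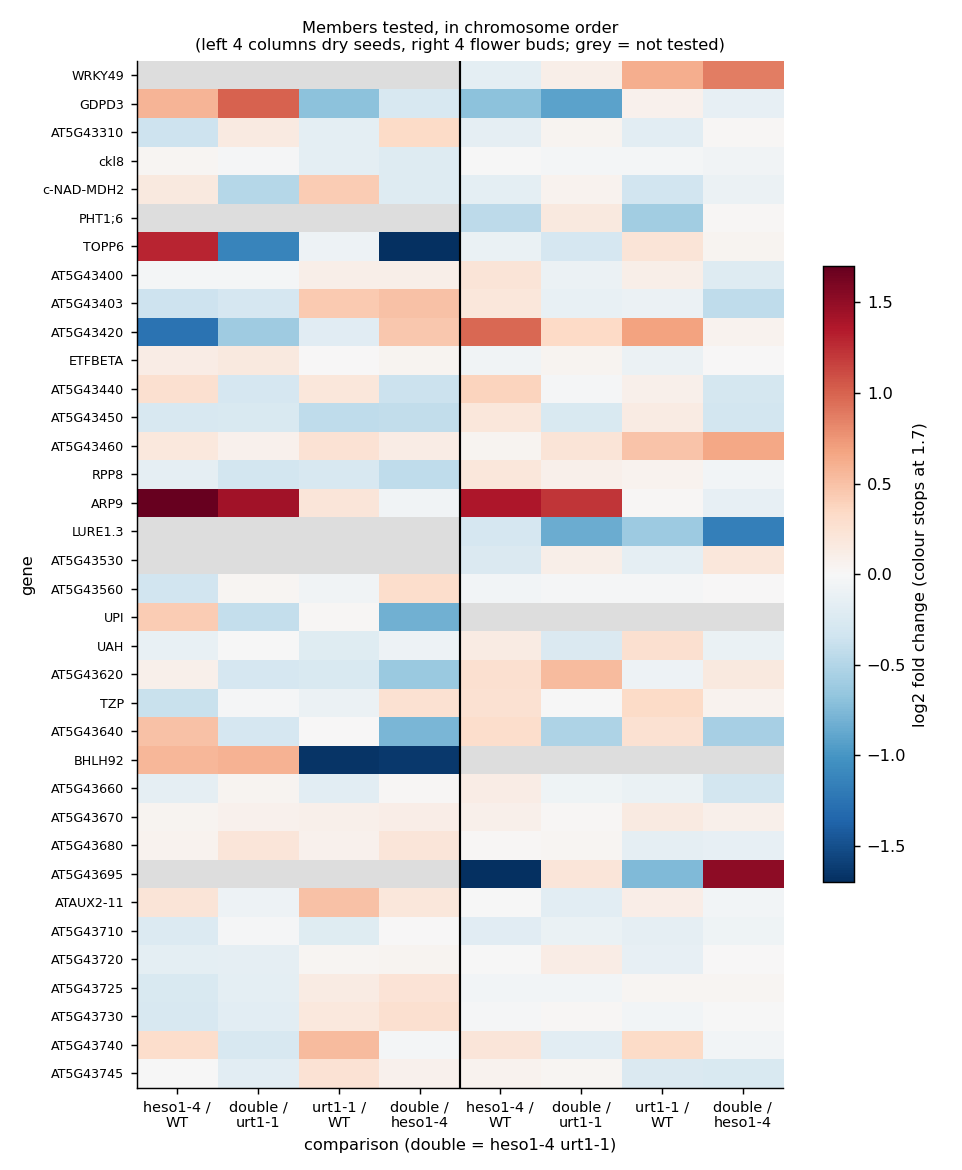
Log2 fold change of the tested genes in chromosome order, in 4 comparisons per tissue (left columns seeds, right columns flower buds; double means heso1-4 urt1-1). ARP9 is the row with strong red in the first 2 columns of each tissue, and genes with few reads, such as TOPP6 and BHLH92, show the other strong colours.

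The average over both backgrounds for urt1-1 in seeds gave 0 of 29 neighbours called by edgeR (0.256% of all genes) and 4 at an unadjusted p under 0.05 (15.6%). The replicate block called 2 neighbours, beside 6.29% of all genes, and DESeq2 called 1 of the 21 it tested, beside 3.09%. The casein kinase ckl8 (AT5G43320) held 41.1, 39.1 and 42.0 CPM in WT, 36.3, 35.4 and 37.4 in urt1-1, 41.0, 41.6 and 42.5 in the heso1-4 libraries and 35.8, 35.5 and 36.1 in heso1-4 urt1-1. Both groups with urt1-1 lay below both without it and did not overlap, by -0.19 ± 0.06 on the log2 scale (adjusted p = 0.15 with edgeR, 0.045 with the replicate block and 0.040 with DESeq2). How many of all genes separate in this way was not counted here either. AT5G43620, annotated as a pre-mRNA cleavage complex protein, was lower by -0.45 ± 0.13 (adjusted p = 0.14; 0.041 with the block).

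Seeds and flower buds were compared in WT in a joint fit, since the rule did not use that difference. Of 36 genes tested, 30 passed the threshold, 12 higher in seeds and 18 lower, beside 80.6% of all genes tested (32.9% higher and 47.7% lower), so the share of the window is near the background. Of these 30, WRKY49, PHT1;6, AT5G43530 and AT5G43695 reached the filter in flower buds only and UPI in seeds only, each through the tissue where it was higher, so their calls were favoured by the filter. Among the 29 genes that passed in both tissues, 25 were called, 11 higher in seeds and 14 lower. Over all 36 genes tested, the direction depends on the scaling. With library size alone 5 were called higher and 20 lower, against 12 and 18 with TMM, and the median of all genes moved from -0.56 to -1.38. The levels below are on a TMM scale common to both tissues.

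TZP (AT5G43630), a zinc knuckle protein of light-regulated growth, stood at 138, 138 and 165 CPM in WT seeds and 9.36, 4.29 and 4.70 in flower buds, higher by 4.58 ± 0.55 in seeds (edgeR adjusted p = 2.3e-07). UAH (AT5G43600), a ureidoglycolate amidohydrolase of purine breakdown, held 76.0, 76.5 and 82.4 against 22.1, 16.2 and 16.1 CPM (2.11 ± 0.18). The dioxygenase-family gene AT5G43660 was also higher, by 2.04 ± 0.26. UPI (AT5G43580), a serine protease inhibitor, was higher by 2.91 ± 1.22 with few reads (adjusted p = 0.034). Its call was lost without WT seed replicate 1 or 2 (adjusted p = 0.089 and 0.053) and without WT flower bud replicate 2 or 3 (0.10 and 0.11).

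On the other side, the phosphate transporter gene PHT1;6 (AT5G43340) had 3 reads in all WT seed libraries and 4144 in the flower bud libraries, a ratio of 607 with a 95% counting interval from 208 to 2946. ATAUX2-11 (AT5G43700), an auxin response repressor of the AUX/IAA family, held 1.47, 0.517 and 0.903 CPM in seeds and 25.4, 35.0 and 32.3 in flower buds (-5.05 ± 0.32). WRKY49 and AT5G43695 had 0 reads in WT seeds and 54 and 66 in WT flower buds, at least 7.91-fold and 9.67-fold lower in seeds against a floor of 3 reads over the group, although WRKY49 lost its call with the replicate block (edgeR adjusted p = 0.050). These bounds and the PHT1;6 interval take all counts as independent. If both reads of a pair were counted, which is not known, they are too tight. ARP9 did not pass the threshold with TMM, at a mean of 10.9 CPM (SD 1.85) in seeds and 11.3 CPM (SD 1.30) in flower buds. Its log2 fold change was -0.05 ± 0.13 SE (edgeR adjusted p = 0.73). With library size alone it was -0.88 (edgeR adjusted p = 8.9e-05).

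**Figure D4:**
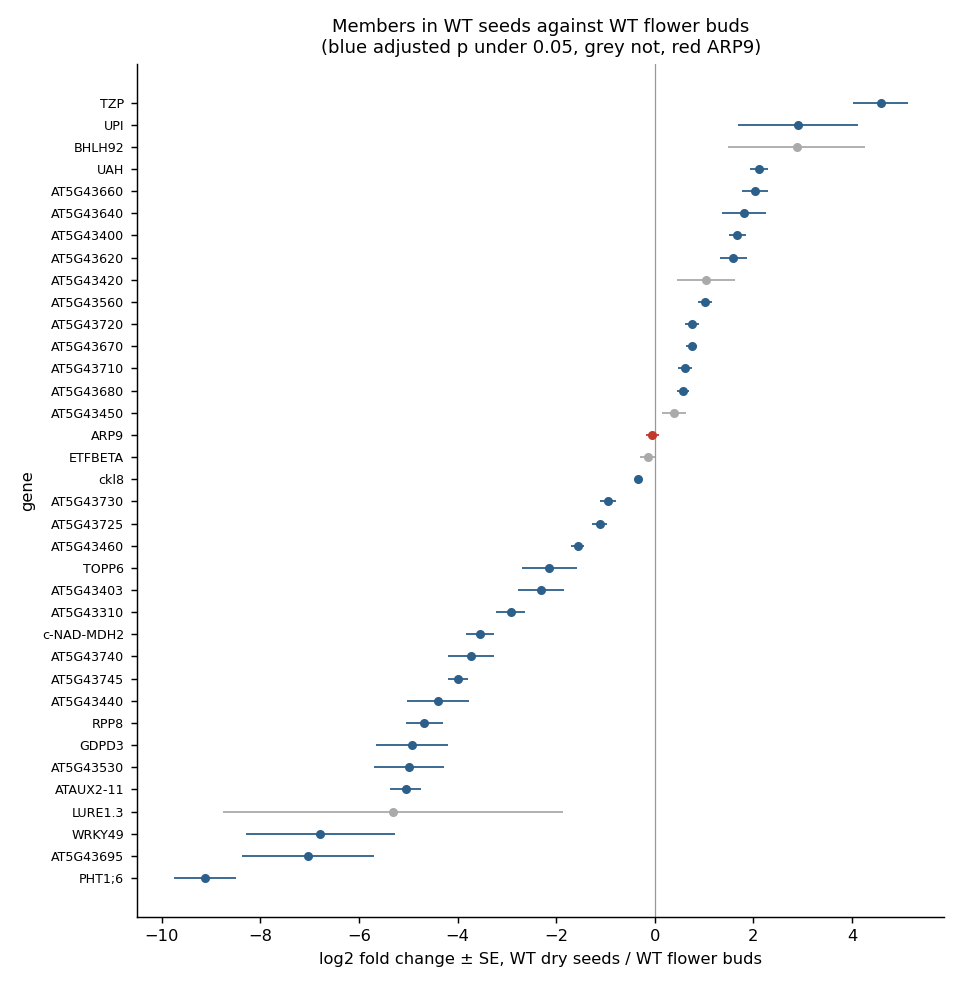
Log2 fold change ± SE of WT seeds against WT flower buds for the 36 tested genes, ordered by size. Blue points passed the adjusted p threshold, grey did not and ARP9 is red near 0; the fitted values of WRKY49, AT5G43695 and LURE1.3, with 0 seed reads in WT, depend on the prior count.

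The PHT1 phosphate transporter family has 4 genes in the window, PHT1;6, PHT1;1, PHT1;3 and PHT1;2. Apart from PHT1;6, they held 0 to 2 reads in every library, and PHT1;1 and PHT1;2 share 72.3% and 75.9% of their spans at 95% identity or more. PHT1;6 in flower buds held 35.7, 39.0 and 53.1 CPM in WT and 16.9, 37.7 and 30.0 in urt1-1. The groups overlap. Of the 9 PHT1 genes listed, 3 were tested in seeds and 4 in flower buds, and edgeR and DESeq2 called 0 for the heso1-4 label. At an unadjusted p under 0.05, 0 passed as well, beside 2.11% of all genes in seeds and 2.2% in flower buds. With 0.0167% of all genes called in seeds and 0.0131% in flower buds, so few genes would rarely hold a call.

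The 5 LURE1 genes, which encode pollen tube attractant peptides, were read mainly in replicate 1 of the flower buds. Their summed reads there were 60 in WT, 47 in urt1-1, 45 in the libraries labelled heso1-4 and 16 in heso1-4 urt1-1. Replicates 2 and 3 held 0 to 11 and the seed libraries 0 to 4. GDPD3 (AT5G43300), a glycerophosphodiester phosphodiesterase gene, was also highest in flower bud replicate 1 of every genotype, for example at 34.2 CPM in WT against 14.98 and 8.62. The part of this difference between replicates in the other results was not tested, except that without replicate 1 of every group the log2 fold change of ARP9 in flower buds was 1.42 for the libraries labelled heso1-4 against WT, 1.09 for heso1-4 urt1-1 against urt1-1, and 1.26 on average.

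**Figure D5:**
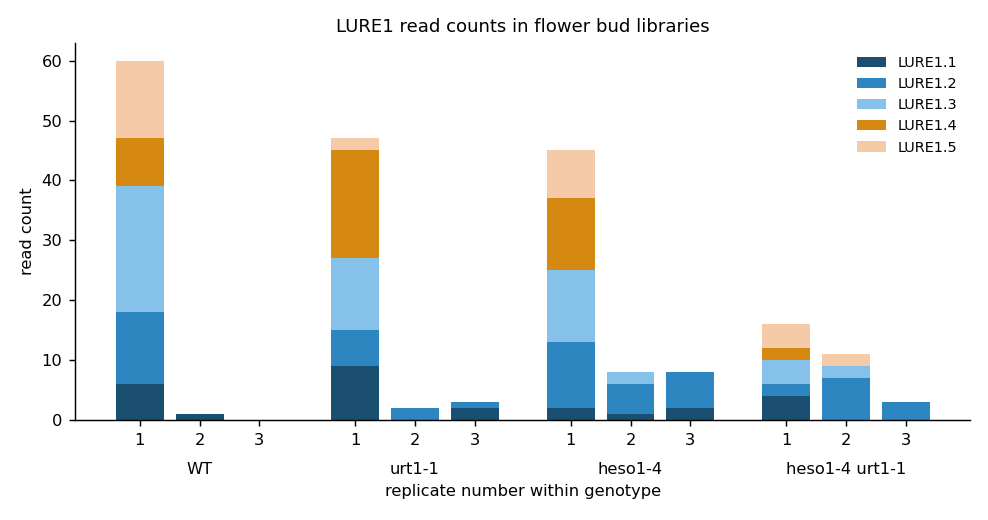
Read counts of the 5 LURE1 genes stacked for each flower bud library, grouped by genotype and replicate. Replicate 1 holds 60, 47, 45 and 16 reads in WT, urt1-1, heso1-4 and heso1-4 urt1-1, and the other libraries hold 11 or fewer.

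The other genes of the actin and chromatin lists, chosen with earlier results of these data known, gave no call for the heso1-4 label by edgeR or DESeq2, beside 0.0167% of all genes called by edgeR in seeds and 0.0131% in flower buds, so a count of 0 is the usual outcome for lists of this size. Of the 8 other actin-related protein genes, all tested, 0 passed the threshold for the heso1-4 label in either tissue by edgeR, and their log2 fold changes had medians of -0.07 (seeds) and 0.01 (flower buds). At an unadjusted p under 0.05, none of the actins or of the INO80 and RVB genes passed in either tissue. Of the 8 actins, 6 were tested in seeds and 8 in flower buds, with 0 called and medians of 0.01 and -0.10. INO80, RVB1 and RVB2A, which belong to chromatin remodelling complexes, gave 0 of 3 called in each tissue.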

How the data were processed

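The authors deposited 1 table of raw read counts per gene for each tissue, 12 libraries each, all used (0 columns left out). These came from featureCounts 2.0.6, per the file headers, run for reverse-stranded pairs over whole genes with their introns, with multi-overlapping reads given to every gene they touch. The headers do not show if single reads or read pairs were counted. HISAT2 2.2.1 and the build TAIR10 are named in the submitters' processing notes. Of counts from 1 to 20, 66.7% to 77.2% per library were even, so a fit with halved counts was an alternative.

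Genes were tested on the deposited counts by the quasi-likelihood test of edgeR 4.0.16 under R 4.3.3 (robust, TMM factors, prior count 0.125, low genes removed by filterByExpr at count 10 and total 15), 1 mean per genotype over the 12 libraries of a tissue or the 24 of both. The threshold was a Benjamini-Hochberg adjusted p of 0.05 over all 17939 genes in seeds, 22841 in flower buds or 23557 jointly. CPM use TMM-scaled library sizes. Copies were found with BLAST 2.17.0. Alternatives were DESeq2 1.42.0, RLE factors, no filter, a replicate block, only the groups compared, a window of 50 kb either side, halved counts and leaving out each library. Intervals of fold changes come from the edgeR fit and include the spread between replicates; the interval of the PHT1;6 ratio and the floors cover counting error only. Replicates of a group differed beyond sampling noise (chi-square per degree of freedom 17.0 to 266). The scripts were tested on simulated data.

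The genes and lists were chosen with earlier results of these data known. The genes named are ARP9, AT5G43460, the 5 genes on each side of ARP9, genes called between genotypes, the 6 with the highest WT CPM per tissue, the 4 with the largest called tissue difference per direction and the window edges; others were named after their values were seen. Same-numbered libraries were taken as paired where their deviations from the group means correlated above 0.1 in every pair. Every comparison met this except heso1-4 against WT in seeds, with 0.088, 0.17 and 0.12. The main tests and intervals left this pairing out, and the replicate block served only as an alternative. The unadjusted result of the actin-related protein list is not reported here.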

Additional observations from a re-analysis of the deposited data

How the results depend on the processing

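Of 227 recomputed member counts, 224 equalled the reported count or stayed within 1.5 times it. The reported count was 0 in every comparison except seeds against flower buds in WT, so most had little room to change. Of 3381 recomputed values of named genes, 3363 were scored as unchanged. A change of direction was scored only where the reported value had passed the threshold, so other values could change direction and still count as unchanged. For the average of urt1-1 in seeds, 0 members were called, 2 with the replicate block and 1 with DESeq2. For seeds against flower buds in WT, a window of 50 kb either side left 10 called, by its own construction fewer genes, and library size alone reversed AT5G43720 to -0.061 and AT5G43710 to -0.21 on the log2 scale. The replicate block also changed the call of AT5G43460 (adjusted p = 0.012 for the urt1-1 average in flower buds) and of AT5G43290, whose adjusted p rose to 0.050 in seeds against flower buds. Without single libraries, ARP9 (AT5G43500) lay between 1.50 and 1.61 (seeds) or 1.25 and 1.34 (flower buds) for the heso1-4 label. ARP9 was chosen on the heso1-4 comparisons, so its adjusted p values there describe the settings and are no test of it. In flower buds its edgeR adjusted p lay above the threshold with only the groups compared (0.0503 against WT and 0.225 for heso1-4 urt1-1 against urt1-1). In the latter comparison it also did so without replicate 1 of every group (0.113), an alternative chosen after seeing the data. The cause of these changes was not tested. Genes with few reads, 26 of 62 below the filter in both tissues, could not be compared at this depth.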
